A study of Mus musculus with 80 samples.

Results

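The 12 high fat arrays with the highest leptin transcript (Lep) were compared with the 12 lowest, 24 of the 38 high fat arrays and of 80 arrays in all, in subcutaneous white adipose tissue of mice. The groups were chosen by the Lep level of each array itself, so the difference in Lep between them is a description. The other 38826 genes did not enter the choice. Because the groups were made from a transcript in the same RNA, a difference here is an association between transcripts and not the effect of a treatment.

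The mice were males of the BXD family, recombinant inbred strains derived from C57BL/6J and DBA/2J, and of both parents. Each array held 1 pool of RNA from about 5 mice of 1 strain on 1 diet, so the array is the replicate, and a p-value is read against how far pools of unlike strains vary. By their labels, all mice in both groups were 29 weeks old, were fed a high fat diet (Harlan 06414) from week 8 and were fasted overnight from 6 pm to 9 am. The labels give no transgene and no drug for either group, and the strains of both groups carry differing mixtures of the parental alleles. The high group held BXD66, BXD65, BXD95, BXD55, BXD44, BXD85, BXD64, BXD48, BXD68, BXD71, BXD103 and BXD89. The low group held BXD79, BXD84, BXD87, BXD75, BXD101, BXD81, BXD73, BXD51, BXD49, BXD43, BXD61 and BXD63. Both parents were among the 14 arrays between the groups. The chow arrays used below came from mice of the same sex and age fed Harlan 2018 throughout.

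Leptin is a hormone that fat cells secrete in proportion to their size and store of triglyceride. It acts on the long form of its receptor, Lepr, in the hypothalamus, where signalling through STAT3 restrains food intake, and the inhibitor Socs3 is induced by the same signal. Its transcript in fat rises with the expansion of fat cells and falls with fasting. The Lep promoter is shown because the ranking rests on this gene. It is given with the promoters of the named genes of largest difference that have an entry, Lipf and Sorbs2 among those higher and Clec2i and Cst7 among those lower in the high group. The sequences are from RefSeq (GRCm38.p6) and run from 250 bases before to 50 bases after the annotated start, all on the plus strand. They lie at chr6:29059971-29060270 for Lep, chr19:33960998-33961297 for Lipf, chr8:45507538-45507837 for Sorbs2, chr6:128887337-128887636 for Clec2i and chr2:150570165-150570464 for Cst7. Capitals mark 2 searched motifs on either strand, TTGCGCAA of the C/EBP factors and the GC box GGGCGG, while TATAAA was searched too.
Lep: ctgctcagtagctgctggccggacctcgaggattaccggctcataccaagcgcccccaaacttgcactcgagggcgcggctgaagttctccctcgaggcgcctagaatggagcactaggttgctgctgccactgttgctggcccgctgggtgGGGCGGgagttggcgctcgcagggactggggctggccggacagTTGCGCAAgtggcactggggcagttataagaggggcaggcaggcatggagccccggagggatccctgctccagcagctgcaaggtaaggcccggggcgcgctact
Lipf: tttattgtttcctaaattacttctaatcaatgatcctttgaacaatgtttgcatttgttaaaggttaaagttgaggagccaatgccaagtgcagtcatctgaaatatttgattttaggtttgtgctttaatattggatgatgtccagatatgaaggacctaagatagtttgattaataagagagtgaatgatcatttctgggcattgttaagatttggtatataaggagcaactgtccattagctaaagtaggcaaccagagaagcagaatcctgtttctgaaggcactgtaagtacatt
Sorbs2: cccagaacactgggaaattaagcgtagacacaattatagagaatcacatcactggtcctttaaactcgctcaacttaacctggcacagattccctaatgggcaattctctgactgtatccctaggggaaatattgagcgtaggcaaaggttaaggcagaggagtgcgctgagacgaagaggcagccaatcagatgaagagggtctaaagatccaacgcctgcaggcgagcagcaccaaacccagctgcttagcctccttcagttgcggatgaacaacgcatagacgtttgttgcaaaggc
Clec2i: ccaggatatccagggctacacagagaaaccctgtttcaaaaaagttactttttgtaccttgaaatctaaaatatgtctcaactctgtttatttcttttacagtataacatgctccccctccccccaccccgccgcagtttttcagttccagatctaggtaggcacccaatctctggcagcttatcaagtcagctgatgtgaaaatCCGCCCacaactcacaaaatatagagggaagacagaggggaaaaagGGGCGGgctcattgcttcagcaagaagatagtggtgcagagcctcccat
Cst7: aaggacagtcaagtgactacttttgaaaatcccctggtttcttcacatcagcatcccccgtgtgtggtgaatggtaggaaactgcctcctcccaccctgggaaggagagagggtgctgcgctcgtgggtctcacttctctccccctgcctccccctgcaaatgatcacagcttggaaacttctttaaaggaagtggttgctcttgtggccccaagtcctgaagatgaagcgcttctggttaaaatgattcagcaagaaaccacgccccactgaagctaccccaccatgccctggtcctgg
The Lep promoter held TTGCGCAA, which reads the same on both strands, at -55 and GGGCGG at -98 from the start, and that of Clec2i held GGGCGG on the plus strand at 2 and on the minus strand at -45. None of the 5 held TATAAA and the other 3 held none of these letters. In the whole table of 27025 promoters, 0.185% held TTGCGCAA, 14.2% TATAAA and 35.9% GGGCGG. Of 15706 protein-coding genes measured that had an entry, 47.7% held GGGCGG and 12.9% TATAAA, and of the 1079 among them that were higher in the high Lep group 67.9% and 6.67%. The median GC content was 57% over the 15706 promoters and 62.3% over the 1079. Whether the motif shares differ beyond this base composition was not tested. These matches are descriptions of letters in this window.

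On the deposited scale every array had a mean of 8 and an SD of 2, so 1 scale unit is 0.5 of an array's SD and differences below are in these units, not fold changes. Lep had a level of 14.72 to 15.08 (median 14.84) in the high group and 11.63 to 14.40 (median 14.34) in the low group, while the 14 arrays between ran from 14.42 to 14.70. The groups cannot overlap by construction. The steps at their edges were small. The last array of the high group stood at 14.72 and the next at 14.70, and the last array between stood at 14.42 and the first of the low group at 14.40. The low group had 2 arrays apart from the rest, BXD63 at 11.63 and BXD61 at 13.48. The group means differed by 0.83 units with them and by 0.54 without them, so the main counts are also given without them.

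**Figure D1:**
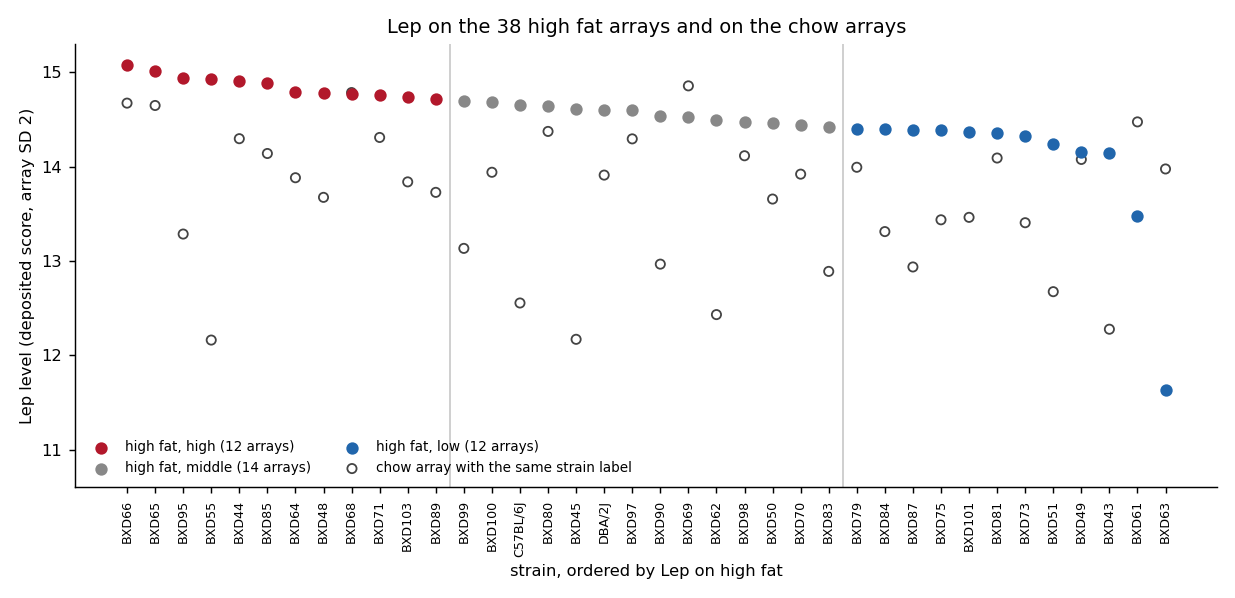
Lep level (deposited score) on the 38 high fat arrays, ordered from highest to lowest and coloured by group, with the chow array of the same strain label as an open circle. Grey lines mark the edges of the groups of 12, and BXD63 and BXD61 lie below the other 36 high fat arrays.

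The chow arrays did not all match their strain label. The check took each of 36 BXD strains and 200 genes that differed most between the parental strains, and asked which high fat array the chow array resembled most. It correlated best with the high fat array of its own label in 21 strains, namely 8 of 12 in the high group, 9 of 12 between and 4 of 12 in the low group. Over 100 genes with the sharpest split of arrays into 2 clusters, the counts were 7 of 12 in the high and 3 of 12 in the low group, and 15 BXD strains failed both checks. Over the 200 genes the chow array labelled BXD87, for example, correlated at r = 0.015 with the high fat array of that label and at 0.85 with the one labelled BXD84, and over the 100 genes at -0.45 and 0.91. This check was added after the data were seen. Which of the strain labels are off was not tested and no array was moved. The diet labels, on which the comparison on high fat rests, were not tested either. The comparison on high fat does not use the strain labels to form groups, whereas every comparison across diets does, and the counts of calls and the tests of Lep across diets are given with and without the strains that did not match. Chow values of gene lists and of small RNA are given for all labels alone.

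On high fat, 1572 genes were higher and 820 lower in the high Lep group (limma's moderated test, Benjamini-Hochberg adjusted p below 0.05), together 6.16% of the genes tested, with 4.05% higher and 2.11% lower. The differences were mostly small. Their median size was 0.26 units among the higher and 0.35 among the lower genes, and 185 genes differed by at least 0.5 units. Without BXD63 and BXD61, 542 genes were higher and 184 lower (1.4% and 0.474%), and of the 2392 genes 706 passed again. All 2392 kept their sign, beside 91.6% of all genes. This refit reuses the other arrays that chose the 2392 genes, so a kept sign is not a separate check. In 7 genes (0.018%) every array of the high group lay above every array of the low group, and in 0 genes did every array lie below.

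The calls split by the kind of transcript. Of the 1572 higher genes, 1451 (92.3%) were protein-coding, but only 70 of the 820 lower ones (8.54%). The lower calls held 332 of 914 small nuclear RNA genes, which carry the RNA of the spliceosome. They also held 72 of 964 small nucleolar RNA genes, which guide the modification of other RNAs. Of 4882 pseudogenes 178 were lower and 50 higher. Among 215 ribosomal protein pseudogenes 45 were lower and 0 higher, and among 81 protein-coding ribosomal protein genes 2 were lower and 0 higher. The median difference was 0.02 over protein-coding genes, -0.21 over small nuclear RNA genes and -0.11 over small nucleolar RNA genes, beside -0.01 over all genes. It was -0.02 over all pseudogenes, -0.16 over ribosomal protein pseudogenes and -0.13 over protein-coding ribosomal protein genes. With means of muscle, B cell and epithelial gene lists as covariates, the medians of the ribosomal protein pseudogenes and genes were -0.06 and -0.005. That of small nuclear RNA genes was then -0.19. Probes of these repeated families can share sequence, so their members are not separate measurements. The class counts fell too without BXD63 and BXD61, to 506 higher protein-coding genes and, among the lower, 100 small nuclear RNA genes, 15 small nucleolar RNA genes, 38 pseudogenes and 5 ribosomal protein pseudogenes. With every array centred on its protein-coding genes the split was 1190 higher and 971 lower, or 55.1% higher in place of 65.7%, and 333 small nuclear RNA genes were lower.

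**Figure D2:**
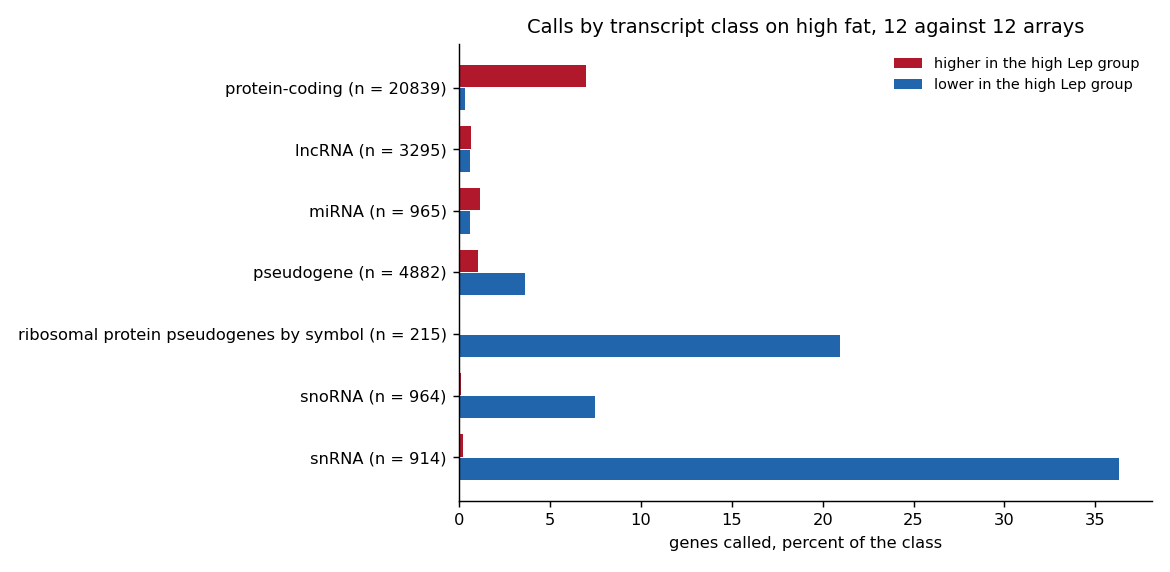
Percent of the genes of each transcript class called higher (red) or lower (blue) in the high Lep group on high fat, with the number of genes in brackets. Small nuclear RNA genes were called lower most often (332 of 914), and protein-coding genes mostly higher (1451 of 20839). These counts were 100 and 506 without BXD63 and BXD61.

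The mean level of 274 small RNA genes moved with the groups. It was 9.62 to 10.27 (mean 9.99 ± 0.20, SD) in the high and 9.69 to 10.91 (mean 10.32 ± 0.28) in the low group, so the groups overlapped. Over the 38 arrays it correlated with Lep at r = -0.53 (rho = -0.44), and at r = -0.32 (rho = -0.38) without BXD63, which had the highest small RNA level, and BXD61. With this mean as a covariate 0 genes passed the test in limma (3998 at an unadjusted p below 0.05). On chow the means were 10.13 in the high and 10.16 in the low group.

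Markers of lymphoid tissue also differed in value between the groups, without passing the test. All 18 B cell and lymph node markers had lower values in the high group (median difference -0.81 units), with 0 of 18 passing the test. The mean of the list ran from 8.57 to 10.91 (median 9.29) in the high group and from 8.65 to 11.61 (median 10.62) in the low group. Its levels fell into separate sets, at or below 8.82 and at or above 9.76, and the lower set held 6 of 12 high, 3 of 14 middle and 2 of 12 low arrays. Cxcl13, a chemokine of lymphoid follicles, had the widest difference of the list (-1.53 ± 0.47 SE, adjusted p = 0.0528), and Ms4a1, which encodes CD20, had -1.24 ± 0.62 (adjusted p = 0.237). The 19 T cell markers all had lower values as well (median -0.61, 0 called). Ms4a1 ran from 7.16 to 11.27 in the high and from 6.88 to 12.24 in the low group, on a scale that has no true zero. The skeletal muscle list (median -0.31, 0 of 20 called) ranged from 8.85 to 12.55 in the high and from 8.96 to 13.20 in the low group, and the epithelial list had a median of -0.05 (0 of 18 called). Fewer cells of a type and less RNA per cell cannot be told apart in pooled tissue. With the B cell list mean as the sole covariate, 0 genes were higher and 1 lower, and with the muscle, B cell and epithelial means together 0 passed (3468 at an unadjusted p below 0.05). All 2392 genes kept their sign in that fit, beside 82.5% of all genes, on the same arrays that chose them, so this is not a separate check. The median difference of the 2392 genes in the direction called went from 0.28 to 0.19 units. The mean of 18 fat cell identity genes was 13.77 ± 0.13 (SD, n = 12) in the high and 13.77 ± 0.20 in the low group. With that mean as a covariate 1735 genes were higher and 829 lower.

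**Figure D3:**
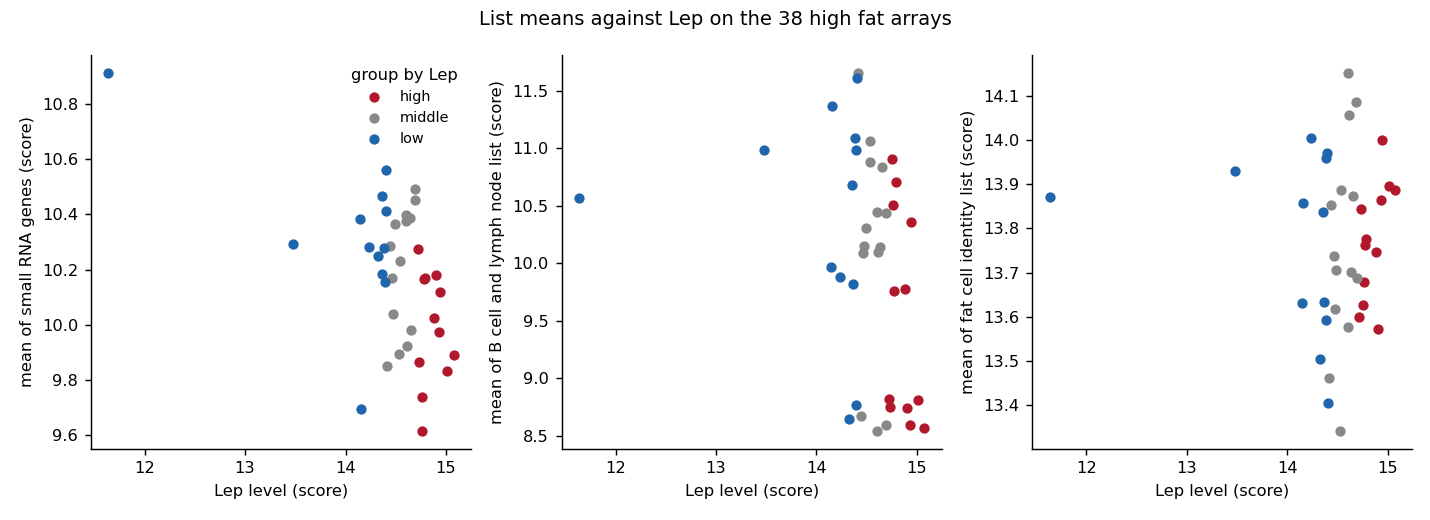
Mean level of the small RNA genes, the B cell and lymph node list and the fat cell identity list (scores) against the Lep level on the 38 high fat arrays, coloured by group. The small RNA means of the high Lep arrays lie between 9.62 and 10.27, 6 of those arrays lie in the lower set for the B cell list, and the fat cell identity means overlap.

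Among genes that passed the test the largest positive difference was that of Lipf, which encodes gastric lipase, at 10.10 to 11.76 (median 11.02) in the high and 6.45 to 11.32 (median 9.91) in the low group. It differed by 1.46 ± 0.39 units (SE, adjusted p = 0.0292), and by 0.97 without BXD63 and BXD61 (adjusted p = 0.0475). The groups overlapped, and all 12 high arrays lay above the median of the low group. BXD63 had the lowest Lipf level (6.45) and BXD61 the next (7.65). Thbs1, the matricellular protein thrombospondin, ran from 12.56 to 14.75 (median 13.64) against 10.80 to 14.03 (median 12.39), a difference of 1.25 ± 0.36 (adjusted p = 0.0394, and 0.123 without both arrays). Sorbs2, an adaptor of the actin cytoskeleton, ran from 9.60 to 11.48 (median 10.82) against 8.38 to 10.66 (median 9.47) and differed by 1.06 ± 0.24 (adjusted p = 0.0172). The groups overlapped in both genes, and all 12 high arrays lay above the median of the low group.

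The next largest among the kinds of genes named here, which leave out predicted models and small RNA, were Cdkl4, a kinase of the cyclin-dependent family (1.05), Wisp2, a secreted factor of fat progenitors (0.93), Gnal, a stimulatory G protein subunit (0.89), and Cyr61, a matricellular target of YAP signalling (0.86). Fam110c (0.83), Ncan, a proteoglycan (0.81), and Fam198b (0.80) followed. Olr1, a scavenger receptor for oxidised lipoprotein, was at 7.11 to 9.07 (median 7.69) in the high group and at 6.75 to 7.27 (median 7.02) in the low group, a difference of 0.77 ± 0.18 (adjusted p = 0.0184). The 3 lowest high arrays overlapped with the low group. Ccl7, which attracts monocytes, was at 9.18 to 10.23 (median 9.52) against 7.91 to 9.95 (median 8.92) and differed by 0.76 ± 0.17 (adjusted p = 0.0172). Without BXD63 and BXD61, Lipf, Sorbs2, Fam198b, Olr1 and Ccl7 of these 12 genes still passed.

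The 7 genes whose groups did not touch were Fam171a1, Tnfrsf23, Mansc1, Gpc4, Prkra, Spata7 and Tbl1x, singled out after their values were seen. Fam171a1 lay at 10.10 to 10.46 in the high and 9.74 to 10.08 in the low group (0.32 ± 0.05, adjusted p = 0.0115). Tnfrsf23, a decoy receptor of the TNF receptor family, lay at 9.24 to 9.85 against 8.29 to 9.22 (0.53 ± 0.09, adjusted p = 0.0115). Gpc4, a glypican released by fat cells, lay at 10.91 to 11.73 against 9.67 to 10.88 (0.59 ± 0.12, adjusted p = 0.0163).

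**Figure D4:**
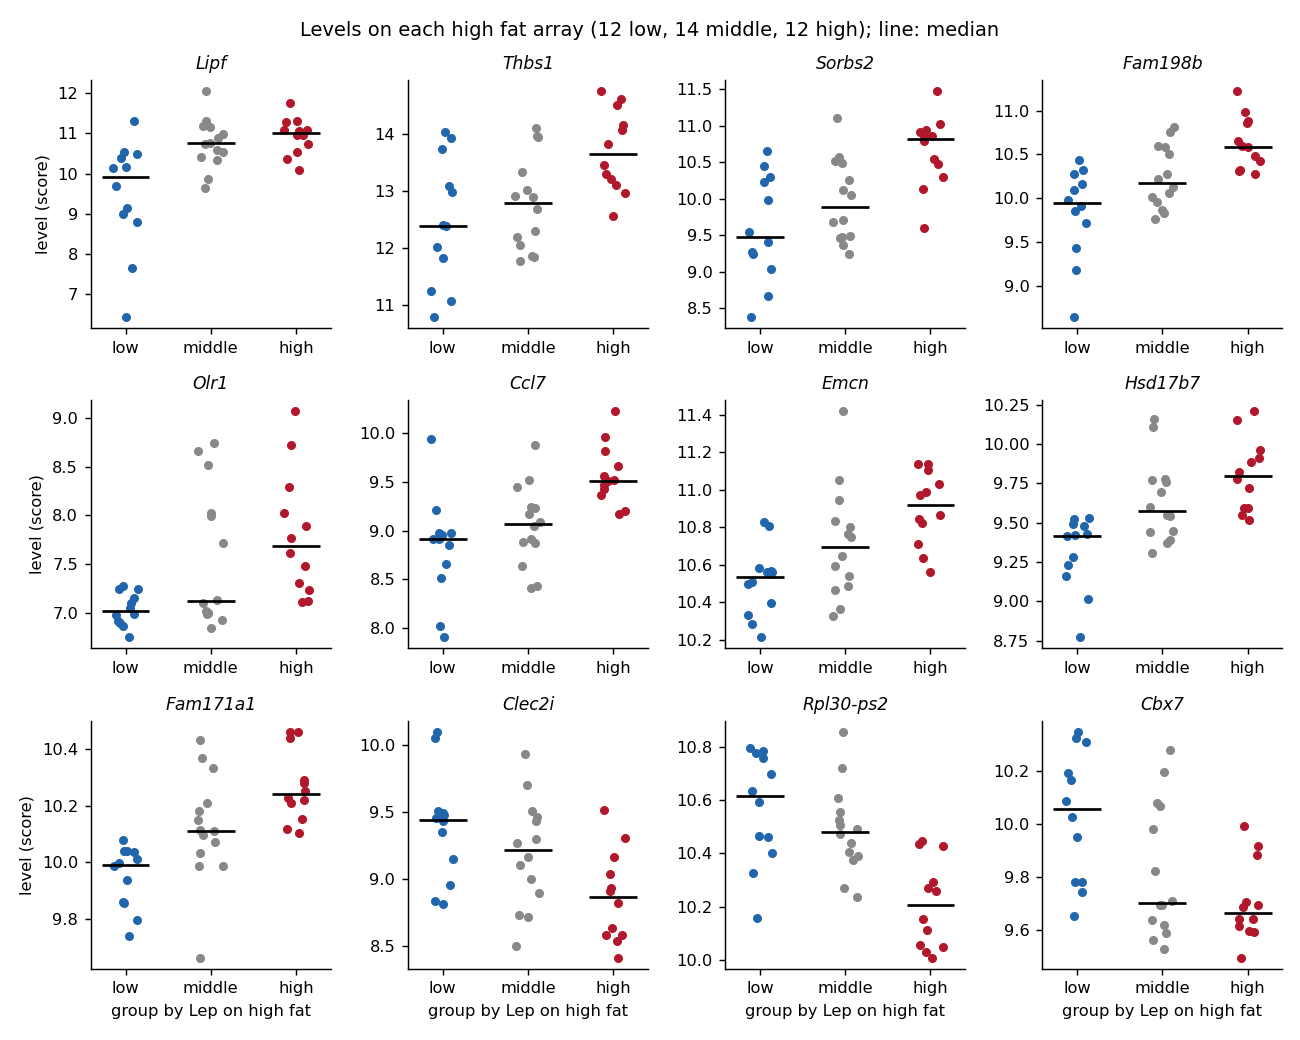
Levels (score) of 12 genes on each of the 38 high fat arrays by Lep group, with the group median as a line. Fam171a1 is the gene of the 12 whose high and low groups do not overlap, and the 3 genes at the end of the last row were lower in the high group.

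Lower genes named by the same rule, which leaves out small RNA and predicted models, had smaller differences. Over all calls the lower genes had the larger median size (0.35 beside 0.26 units). Clec2i, a C-type lectin that is a ligand of natural killer cell receptors, lay at 8.41 to 9.51 (median 8.87) in the high and 8.82 to 10.10 (median 9.44) in the low group, lower by 0.51 units in the high group (adjusted p = 0.0366). Cst7, an inhibitor of lysosomal proteases in lymphocytes and myeloid cells, had a difference of -0.39 ± 0.11 (adjusted p = 0.0417), Itgb7, an integrin of gut-homing lymphocytes, -0.35 ± 0.10 and Amica1, a leukocyte adhesion protein, -0.34 ± 0.10. Cbx7, a Polycomb subunit, had -0.33 ± 0.08 (adjusted p = 0.0221). The other members of the 12 were the ribosomal protein copies Rps15a-ps7, Rpl30-ps2, Rps24-ps2, Rps24-ps3, Rps27rt, Rpl13a-ps1 and Rpl30-ps11, with differences from -0.36 to -0.32. These near-identical copies cannot be told apart from their parent genes with certainty. Of the 12, Rpl30-ps2 (adjusted p = 0.0383) and Rps24-ps2 (adjusted p = 0.0454) still passed without BXD63 and BXD61.

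Gene lists were described by their counts and medians. Of 815 distinct members, 67 were higher and 0 lower (8.22% called, beside 6.16% of all genes and 7.3% of protein-coding genes). The members' median difference was 0.08 units, beside 0.02 for protein-coding genes. The counts of single lists below are to be read beside these shares.

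**Figure D5:**
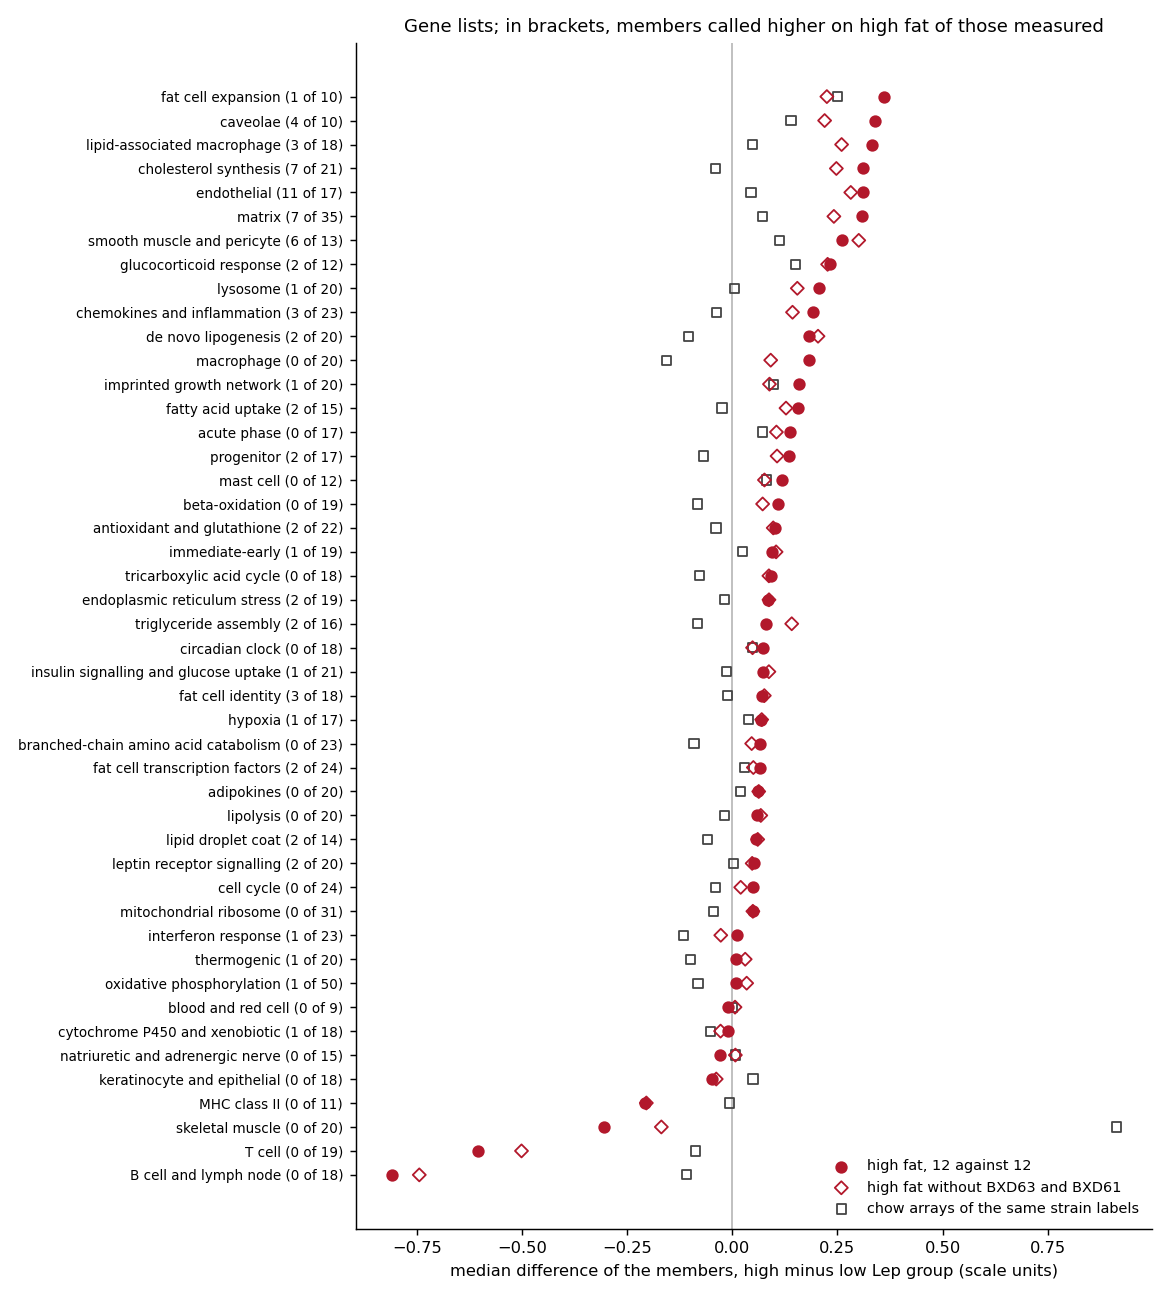
Median difference of the members of each of 46 gene lists (high minus low Lep group, scale units) on high fat, on high fat without BXD63 and BXD61, and on the chow arrays of the same strain labels. Brackets give members called higher of those measured, up to 11 of 17 for endothelial genes, and the lymphocyte lists lie lowest.

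Vascular genes passed the test most often. All 17 endothelial markers had higher values in the high group (median 0.31), and 11 passed, 7 of them without BXD63 and BXD61. Emcn, the sialomucin endomucin of capillary and venous endothelium, ran from 10.56 to 11.14 (median 10.92) against 10.22 to 10.83 (median 10.54), a difference of 0.39 ± 0.08 (adjusted p = 0.0156). Pecam1, the junction protein CD31, differed by 0.36 ± 0.07 (adjusted p = 0.0163), Cdh5, VE-cadherin, by 0.35 ± 0.09 and Flt1, a receptor of VEGF, by 0.31 ± 0.07. The mean of the list was 11.33 ± 0.16 in the high and 11.04 ± 0.13 in the low group, and the groups overlapped from 11.07 to 11.20. With the tissue covariates the list median was 0.18 and with the small RNA covariate 0.17, and on the chow arrays it was 0.04. Over the 14 arrays between the groups its median slope on Lep was -0.51, opposite in sign to the group difference. Of 13 smooth muscle and pericyte genes 6 were higher, among them Mcam (0.44 ± 0.09), Kcnj8, a potassium channel of pericytes (0.47 ± 0.12), Rgs5 (0.50 ± 0.14) and Notch3 (0.24 ± 0.05), with a list median of 0.26 (0.30 without both arrays). With both arrays left out 3 of the 13 passed, Mcam, Notch3 and Smtn, while Kcnj8 (adjusted p = 0.0514) and Rgs5 (adjusted p = 0.0615) did not.

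Caveolae are flask-shaped invaginations that fill much of the surface of a fat cell and of the endothelium. Of 10 genes of their coat 4 were higher. Prkcdbp, or cavin 3, lay at 12.29 to 13.02 (median 12.73) in the high and 10.67 to 12.64 (median 12.30) in the low group (0.59 ± 0.17, adjusted p = 0.0363). Sdpr, or cavin 2, differed by 0.36 ± 0.08 (adjusted p = 0.0188), Ptrf, or cavin 1, by 0.24 ± 0.07 (adjusted p = 0.0439) and Pacsin2 by 0.25 ± 0.07. Cav1, the main coat protein, had a difference of 0.33 ± 0.11 that did not pass (adjusted p = 0.0630), as had Cav2 (0.43 ± 0.13, adjusted p = 0.0508). Of the 4, Sdpr alone still passed without BXD63 and BXD61, Prkcdbp did not (adjusted p = 0.0571), and Cav1 and Cav2 passed, at 0.21 (adjusted p = 0.0304) and 0.28 (adjusted p = 0.0241). The 10 genes tied to fat cell expansion had a median of 0.36, with 1 called, Fgf13 (0.39 ± 0.09, adjusted p = 0.0204, and 0.0538 without both arrays). Without both arrays 1 of the 10 passed, a gene other than Fgf13. On chow the list median was 0.25, and 9 of 10 values were positive. Mest, an imprinted hydrolase whose transcript tracks fat mass, ran from 12.80 to 13.56 against 11.28 to 13.16 (0.54 ± 0.17, adjusted p = 0.0592). Sfrp5, a secreted inhibitor of Wnt signalling, had 0.55 ± 0.19 (adjusted p = 0.0838) and Npr3, the clearance receptor of natriuretic peptides, 0.43 ± 0.17 (adjusted p = 0.120).

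Of 21 cholesterol synthesis genes 7 were higher and 20 had positive values (median 0.31). The median was 0.25 without BXD63 and BXD61 and 3 passed, Hsd17b7, Lss and Nsdhl. Hsd17b7 lay at 9.52 to 10.21 (median 9.80) against 8.77 to 9.53 (median 9.42), where 1 high array lay within the range of the low group, a difference of 0.50 ± 0.09 (adjusted p = 0.0146). Nsdhl (0.63 ± 0.15), Lss, lanosterol synthase (0.52 ± 0.11), Fdps (0.35 ± 0.11), Msmo1 (0.33 ± 0.09) and Dhcr7 (0.27 ± 0.07) were higher too. On chow the list median was -0.04, and 6 of 21 values were positive.

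Among lipogenic genes Scd2, a desaturase (0.51 ± 0.15), and G6pdx, which supplies NADPH (0.46 ± 0.10), passed, 2 of 20. Fasn, fatty acid synthase (0.29 ± 0.20, adjusted p = 0.409), Elovl6, an elongase (0.15 ± 0.23, adjusted p = 0.764), and Scd1, the main desaturase of white fat (0.10 ± 0.05, adjusted p = 0.291), did not. In triglyceride assembly Gyk, glycerol kinase (0.46 ± 0.10), and Lpin3, a phosphatidate phosphatase (0.19 ± 0.05), passed of 16, and in fatty acid uptake Fabp5 (0.40 ± 0.11) and Lpl, lipoprotein lipase (0.16 ± 0.04), of 15. Of 20 lipolysis genes 0 passed. Beside the 7.3% called over all protein-coding genes, these counts do not set the lists apart. Leaving out BXD63 and BXD61, G6pdx and Gyk still passed, while Scd2 (adjusted p = 0.0677), Lpin3 (0.0829), Fabp5 (0.0918) and Lpl (0.0677) did not, which left 0 of 15 for fatty acid uptake. The lipogenic gene Slc25a1, which had not passed before (adjusted p = 0.0569), then passed (0.34, adjusted p = 0.049).

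Genes that define the mature fat cell moved little as a list (median 0.07, 3 of 18 higher). Pparg, the master regulator of fat cell formation, lay at 12.43 to 13.08 (median 12.83) in the high and 12.09 to 12.90 (median 12.39) in the low group (0.31 ± 0.09, adjusted p = 0.0413, and 0.129 without both arrays). Cidec, which fuses lipid droplets, differed by 0.21 ± 0.05 (adjusted p = 0.0251, and 0.0679 without both arrays). Of the 18 genes 0 passed without BXD63 and BXD61. Cebpa, a factor that acts with Pparg, had a difference of -0.01 ± 0.10 (adjusted p = 0.970), Adipoq, adiponectin, 0.03 ± 0.06 (adjusted p = 0.834), and Slc2a4, a glucose carrier that insulin moves to the surface, 0.08 ± 0.11 (adjusted p = 0.727). Adrb3, the adrenergic receptor of fat cells, had -0.83 ± 0.29 (adjusted p = 0.0862) and Cfd, adipsin, -0.58 ± 0.23 (adjusted p = 0.119). Of 20 adipokine genes other than Lep 0 passed. Without both arrays 1 of the 20 passed, Ccdc3 (0.43, adjusted p = 0.0197).

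In leptin receptor signalling 2 of 20 genes passed, beside 7.3% of all protein-coding genes, so the count does not set this list apart. Leprot, which is transcribed from the Lepr locus and limits receptor display at the cell surface, was higher by 0.25 ± 0.07 (adjusted p = 0.0317), and Stat3 by 0.14 ± 0.04 (adjusted p = 0.0358). Lepr itself had -0.35 ± 0.19 (adjusted p = 0.291) and Socs3 -0.05 ± 0.05 (adjusted p = 0.608), with overlapping groups. Of the 20 genes 0 passed without BXD63 and BXD61 (adjusted p = 0.0716 for Leprot and 0.0677 for Stat3).

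Of 35 matrix genes 7 were higher and 34 had positive values (median 0.31). These were Thbs1, Lox, which cross-links collagen (0.37 ± 0.11, adjusted p = 0.0424), Col5a2, Col6a3, Col4a2, Col8a1 and Sparc, which binds collagen (0.24 ± 0.06, adjusted p = 0.0221). Col1a1, the main fibrillar collagen chain, had 0.22 ± 0.11 (adjusted p = 0.229). Sparc was the 1 gene of these 7 that still passed without BXD63 and BXD61 (adjusted p = 0.0298), and Thbs1 (0.123) and Lox (0.126) did not. Spon1, which had not passed before, then made 2 of 35.

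Of 23 chemokine and inflammation genes Ccl7, Ccl2 (0.49 ± 0.13, adjusted p = 0.0314) and Nos2 (0.22 ± 0.05, adjusted p = 0.0173) were higher. Ccl2 did not pass without BXD63 and BXD61 (adjusted p = 0.0983). Of 20 macrophage genes 0 passed, and Emr1, the marker F4/80, had 0.50 ± 0.27 (adjusted p = 0.279). In lipid-associated macrophages, a state described in obese fat, 3 of 18 listed genes were higher, but these were Lpl, Plin2 and Fabp5, of which Lpl and Plin2 are known from fat cells too, and without BXD63 and BXD61 0 of the 18 passed. Itgax (0.53 ± 0.23, adjusted p = 0.162) and Trem2 (0.38 ± 0.18, adjusted p = 0.227) did not pass. Other genes that were higher were Cdkn1a, a cell cycle inhibitor (0.66 ± 0.15, adjusted p = 0.0170), and Adm, a vasodilator peptide (0.75 ± 0.16, adjusted p = 0.0170). Dusp1, a phosphatase of MAP kinases (0.61 ± 0.16, adjusted p = 0.0285, and 0.0881 without both arrays), and Pdgfrb (0.45 ± 0.09) were higher too. Their lists had calls for 2 of 12 glucocorticoid response, 1 of 17 hypoxia, 1 of 19 immediate-early and 2 of 17 progenitor genes. In the progenitor list 10 of 17 values were positive, while Dpp4 (-0.42) and Cd55 (-0.35) had negative values and did not pass.

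Oxidative lists held almost no calls, with 1 of 50 oxidative phosphorylation genes, 0 of 19 for beta-oxidation, 0 of 18 for the tricarboxylic acid cycle and 0 of 23 for branched-chain amino acid catabolism. Bckdha, of the last list, had -0.06 ± 0.07 (adjusted p = 0.712). Of 20 thermogenic genes only Gyk passed. Ucp1, which uncouples respiration in brown fat cells, had 1.06 ± 0.50 (adjusted p = 0.214), with levels from 7.54 to 12.47 in the high and 7.15 to 11.61 in the low group. Cyp2e1 ranged from 9.42 to 14.39 and from 9.33 to 15.09 (-0.56 ± 0.60, adjusted p = 0.632).

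The genes whose levels followed Lep most closely over all 38 arrays, as a description, were Npr3 (r = 0.93), Cav1 (0.92), Cav2 (0.92), Pcbd1 (0.92) and Lbp (0.91). Without BXD63 and BXD61 the same r were 0.68, 0.73, 0.71, 0.67 and 0.66. The most negative were Nr4a3 (-0.83), Mpzl2 (-0.78), Acsm3 (-0.77), Trpm2 (-0.76) and Safb2 (-0.75), which were -0.12, -0.25, -0.41, -0.53 and -0.41 without both arrays. Ranks gave smaller values, with rho over 38 arrays from 0.62 to 0.74 for the positive and from -0.57 to -0.26 for the negative genes. All these values come from the same arrays, on 1 scale and with 1 tissue mix each.

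Over the 14 arrays between the groups, which the comparison did not use, 0 genes had a slope on Lep that passed (limma, smallest adjusted p = 0.641, with 2359 at an unadjusted p below 0.05), and with robust regression 42 were positive and 19 negative. Lep spanned only 14.42 to 14.70 there. Of the 2392 genes called between the groups, 28% had a slope in the direction called, beside 39.8% of all genes. The B cell list had a median slope of -2.32 units per unit of Lep, the sign of its group difference. Small RNA genes had 1.17, opposite to their group difference (median -0.38). Opposite signs were also seen for the endothelial (-0.51, 3 of 17 positive) and smooth muscle and pericyte (-0.40, 3 of 13) lists. The matrix list was opposite too (-0.50, 12 of 35). The caveolae (0.43, 8 of 10 positive), fat cell expansion (0.46, 8 of 10) and cholesterol synthesis (0.54, 18 of 21) lists kept the sign. Positive slopes were not particular to these lists. Lists with few or 0 calls had larger ones, such as beta-oxidation (0.98, 17 of 19), fat cell identity (0.79, 17 of 18) and oxidative phosphorylation (0.63, 47 of 50). Over all genes the median slope was 0.09, with 56.6% positive.

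On the chow arrays of the same strain labels 0 genes passed (limma, smallest adjusted p = 1, 1384 at an unadjusted p below 0.05), and 0 passed by robust regression. Of the 2392 genes, 82.7% had a chow difference of the same sign, beside 56.3% of all genes, and the median of that difference was 0.06 units in the direction called on high fat. Using only the 8 high and 4 low strains whose arrays matched across diets, 0 passed (1787 at an unadjusted p below 0.05) and the shares were 68.7% and 49.2%. Skeletal muscle markers had a median of 0.91 units on chow, with all 20 higher in value, in contrast to -0.31 on high fat. The test of a different diet response between the groups, with strain as a block, had 0 calls (smallest adjusted p = 0.418, 3934 at an unadjusted p below 0.05), and 0 in the matched strains (2790). A p above the threshold does not show that the groups responded alike.

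Lep on chow was not tied firmly to the grouping. It ran from 12.16 to 14.79 (median 14.01) in the high and from 12.28 to 14.47 (median 13.45) in the low group, a difference of 0.44 units (two-sided permutation test, 100000 resamples, p = 0.130). In the matched strains it was 0.69 (exact permutation test, p = 0.133). Across the 38 strains Lep on high fat and on chow had r = 0.01 (permutation p = 0.956) and rho = 0.21 (p = 0.210). Without BXD63 and BXD61, the arrays farthest from the median, r was 0.32 (permutation p = 0.0547). In the 21 matched strains r was 0.19 (permutation p = 0.402) and rho 0.34 (p = 0.138), and r was 0.33 (p = 0.166) without the 2 strains farthest from the median.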

How the data were processed

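Total RNA of about 5 mice of 1 strain and diet was pooled for each array, per the labels' protocols. What the authors deposited is a score for each feature and array. Affymetrix Expression Console and RMA are named as tools, per the submitters' processing notes. Each array has a mean of 8 and an SD of 2, from a rescaling step not given in the sources used here. This fixes every array's mean, so a gene's value is relative to all other features. Depth does not apply to arrays; their number limits the precision. Features without a symbol (26355 of 65770) were not used. Each of 38827 genes was read from its feature of highest mean across the 80 arrays, and 32403 of these symbols were found in the RefSeq gene table, used for biotypes. A column for BXD92 on chow was taken as a chow array of that group and is in no comparison here.

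Groups were compared with limma 3.58.1 in R 4.3.3, with Benjamini-Hochberg adjustment over 38826 genes and a threshold of 0.05, without a filter on low values. Single values were tested with SciPy 1.17.1. The scripts were tested on simulated data. The pairing of diets comes from the strain label. The named genes were the 12 of largest difference in each direction among those called, without predicted models, small RNA and receptor or immunoglobulin families, a set of 24 genes, up to 4 members of each list with the widest difference and the 5 genes of strongest correlation with Lep in each direction. The members and the 46 lists (884 of 888 members found) were chosen with earlier results of these data known. Some arrays left out, covariates, the centring on protein-coding genes and the label check were chosen after seeing the data.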

Additional observations from a re-analysis of the deposited data

How the results depend on the processing

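The 1572 higher and 820 lower genes on high fat depended on the setting. Each array left out in turn gave 745 to 1819 higher and 377 to 1251 lower genes. A count moved by over 1.5 times without BXD66 (745 higher, 377 lower), BXD65 (821, 439), BXD55 (938, 469), BXD79 (962, 473), BXD75 (945, 513), BXD61 (980 higher), BXD68 (529 lower), BXD103 (535 lower), BXD63 (480 lower) or BXD49 (1251 lower). Without BXD63 they were 1066 and 480, and without BXD61 as well 542 and 184. The 8 highest against the 8 lowest gave 315 and 14, the upper against the lower 19 gave 12 and 0, the slope on Lep over 38 arrays 3937 and 3259, and over 36 arrays 774 and 120. Covariates for muscle, B cell and epithelial lists gave 0 and 0, the B cell list alone 0 and 1, the epithelial list alone 381 and 59, small RNA 0 and 0, and the match of strain labels 467 and 78. Without BXD63 and BXD61, tissue covariates gave 0 and 0 and the fat cell covariate 530 and 118. The 8 high and 4 low strains whose labels matched, and the 4 and 8 that did not, gave 0 in each direction, with fewer arrays by construction. Robust regression gave 2231 and 1349. Both counts stayed within 1.5 times of the reported ones with quantile normalization, without the lowest 40% of genes, with the mean of all features, the fat cell covariate, the muscle covariate, array weights, centring on protein-coding genes and the slope on ranks, and leaving out both parents changes nothing since neither is in a group. Other than where fewer arrays entered, the cause of these moves was not tested. Of 48 genes named by size or as a set, 27 passed, and 0 passed in the opposite direction under any of these settings, although up to 6 that had not passed turned sign in 1 setting; 7 of the 27 kept the call without BXD63 and BXD61 and 0 with the tissue or the small RNA covariates. The middle slope had 0 calls except by robust regression (42 and 19), and the chow and diet response tests had 0 calls in all settings run, with no replicate block for strain as well. Lep on chow differed by 0.26 to 0.69 units over its alternatives, with p from 0.0572 to 0.473.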
